A study of Macaca fascicularis and Mus musculus with 42 samples.

Results

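Undifferentiated embryonic stem cells (ESC) of the cynomolgus monkey (Macaca fascicularis) that carry 2 fluorescent germ cell reporters were compared with ESC of lines without transgenes. Of the 42 libraries of the study, 38 were from monkey, and 9 of these enter the comparison: 4 of reporter ESC and 5 of transgene-free ESC. The reporter cells carry Blimp1-tdTomato and TFAP2C-EGFP, which report PRDM1 (Blimp1) and TFAP2C, both early germ cell transcription factors. They were taken at day 0, before induction to primordial germ cell-like cells. Reporter libraries 1, 3 and 4 are labelled as line 656BTAG42 and library 2 as 656BTAG63. Transgene-free cells came from CMK6 (2 libraries) and from 656, 681F and 22 (1 library each). All 9 were grown in the condition labelled AITS+IF20, and the protocol lists AITS medium with bFGF and the tankyrase inhibitor IWR1. The reporter lines carry 656 in their names, but the labels do not say that they were derived from it, nor whether a line is 1 clone, nor that libraries of a line are separate cultures, so p-values measure the spread between these samples.

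RNA was read at the 3′ ends of transcripts in bulk cells, and levels are in RPM, the reads of a gene scaled to the total reads of its library. The 9 libraries held 1093767 to 6761824 reads in genes, so a single read stood for 0.147 to 0.910 RPM, and 12655 to 15947 genes were detected. A 5th library labelled reporter ESC was left out because its PRDM1 level, 253 RPM, contradicts its label. The column names of the table can be read in either of 2 orders: the 4 reporter libraries used are ESC in both, but all 4 would be 656BTAG42 in the other order, so the line of each reporter library is uncertain. Libraries carry a code in their titles: MS134 for reporter libraries 1 and 2, MS162 for 3 and 4, MS116 for CMK6, and MS173 for 656, 681F and 22. No code holds libraries of both groups, so code, line and transgene cannot be told apart and no value within a code can be given.

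ESC lines from different embryos differ in genotype and sex, and lines also drift in culture. A frequent form of drift concerns imprinted genes, which are expressed from the copy of a single parent, as set by a methylation mark on a single parental copy. When both copies gain or lose that mark, the gene can be silenced or raised in a line and its derivatives. Primate ESC in medium of this kind have a primed state that resembles the postimplantation epiblast, with high POU5F1, SOX2 and NANOG and with SOX11, ZIC2 and DNMT3B, but without the naive factors.

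Both CMK6 libraries stood apart from all others. The median absolute log2 difference over the 9481 genes tested was 0.94 between these 2 libraries of the same line, and 0.61 to 0.88 between either of them and the other 7 libraries. It was 0.25 to 0.30 among 656, 681F and 22, which share a title code, and 0.31 to 0.45 among the reporter libraries. Reporter libraries lay 0.30 to 0.48 from 656, 0.34 to 0.49 from 681F and 0.33 to 0.48 from 22. Each of the 4 reporter libraries was nearest to 656 among these 3 lines, at 0.332, 0.417, 0.303 and 0.477 for libraries 1 to 4, but the next line was only 0.334, 0.437, 0.353 and 0.482 away, and this order was not tested. Results are therefore given with and without CMK6 where the difference matters.

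**Figure D1:**
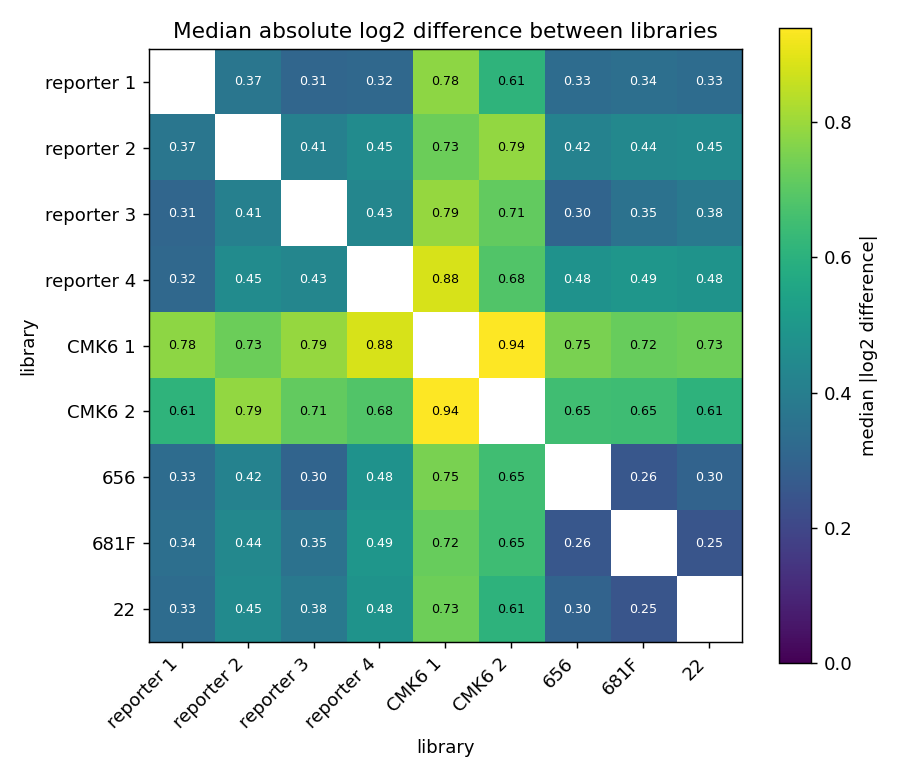
Median absolute difference in log2(RPM + 1) over the 9481 tested genes for each pair of the 9 libraries (rows and columns: libraries, colour and number: the difference). Every pair with a CMK6 library lies at 0.61 or above, and all other pairs lie at 0.49 or below.

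The cells of both groups were undifferentiated by their markers. The summed level of 11 ESC markers was 3317 to 3833 RPM in reporter libraries and 3618 to 4412 RPM in transgene-free libraries, and 10 of the 11 reached at least 10 RPM in every library. The exception was ZFP42, a naive-state marker, at 0 to 1.3 RPM. Germ cell markers were low: the 5 summed to 4.40 to 21.1 RPM in reporter and 14.9 to 46.4 RPM in transgene-free libraries. PRDM1 lay at 0.59, 2.59, 0 and 0 RPM in reporter libraries 1 to 4 and at 0 to 2.44 RPM in the transgene-free libraries, and NANOS3, an RNA-binding germ cell protein, was listed at 0 in all 9. SOX17, which specifies primate germ cells and endoderm, was at 0 to 3.45 RPM in reporter and at 0 to 1.63 RPM in transgene-free libraries. TFAP2C was at 2.94, 14.2, 4.40 and 6.46 RPM in reporter libraries and at 6.13 to 14 RPM in the others, and the groups overlapped. Fluorescent transgenes have no entry of their own here, so the reporters themselves were not measured.

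Most short marker lists of other cell types summed to low levels, with some unevenness between libraries. The 7 primitive streak and mesoderm markers summed to 56.8, 42.3, 7.04 and 28.0 RPM in reporter libraries 1 to 4 and to 6.74 to 14.6 RPM in transgene-free ones, where MIXL1 and EOMES, streak transcription factors, made up most of the reporter sum. The 8 endoderm markers summed to 3.52 to 22.9 RPM against 0.91 to 11.2 RPM, the 5 neural markers with an entry to 5.61 to 26.4 against 1.23 to 20.0 RPM, and the 7 amnion and trophoblast markers to 30.3 to 59.1 against 26.3 to 71.1 RPM. Longer lists summed higher. The 13 neural ectoderm entries summed to 210 to 616 RPM in reporter and 93.7 to 276 RPM in transgene-free libraries, with 9 under 10 RPM in all. The 13 amnion and trophoblast entries summed to 186 to 402 against 218 to 372 RPM, with 10 under 10 RPM in all. The fibroblast and smooth muscle list summed to 684 to 1997 RPM against 213 to 1512 RPM, mostly TAGLN, an actin-binding protein that ESC can express. Its defining stromal genes LUM, DCN and POSTN were at or near 0, with no value above 1.56 RPM in any of the 9 libraries. CER1, a secreted NODAL and BMP inhibitor of anterior endoderm, was at 131 and 190 RPM in reporter libraries 1 and 2 (MS134), 0 and 12.9 RPM in 3 and 4 (MS162) and 0 to 20.4 RPM in the others. In bulk samples, fewer cells of a type and less RNA per cell cannot be told apart.

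POU5F1, which encodes the core pluripotency factor OCT4, was lower in every reporter library than in every transgene-free library. Its levels were 725, 1091, 672 and 676 RPM in reporter libraries 1 to 4. They were 1927 and 1443 RPM in CMK6, 1714 in 656, 1515 in 681F and 1446 in 22. The means were 791 ± 202 (SD, n = 4) and 1609 ± 209 RPM (SD, n = 5), and the log2 difference was -1.05 ± 0.24 (SE). It did not pass the threshold over all genes (limma, Benjamini-Hochberg adjusted p = 0.122). Without both CMK6 libraries it was called at almost the same size, -1.0 (adjusted p = 0.0347). With all 9 libraries, DESeq2, which called 316 genes, also called it (-1.04, adjusted p = 0.00031). With edgeR it was not called (adjusted p = 0.0971).

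The core factors NANOG and SOX2 overlapped between the groups. NANOG was at 246, 217, 180 and 317 RPM in reporter libraries and at 880, 377, 360, 425 and 176 RPM in CMK6 1 and 2, 656, 681F and 22, with an adjusted p of 0.426 (limma). SOX2 was at 311 to 398 RPM in reporter libraries, at 117 and 132 RPM in CMK6 and at 210, 351 and 407 RPM in 656, 681F and 22 (adjusted p = 0.415). Reporter ESC thus lay inside the transgene-free range for SOX2, whose lowest values were those of CMK6. Of 14 tested core pluripotency genes none was called, beside 0.200% of all tested genes. Without overlap, 1 of the 14 lay higher and 1 lower, beside 2.80% and 4.19% of all tested genes. At such shares, a list of 14 does not show that these genes are unchanged. PRDM14, a repressor of differentiation, lay higher in all 4 reporter libraries (118 to 160 RPM) than in any other (83 to 106 RPM), but its log2 difference of 0.61 did not pass (adjusted p = 0.248). Naive-state genes were too low to test, apart from 1 of the 12 with an entry.

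**Figure D2:**
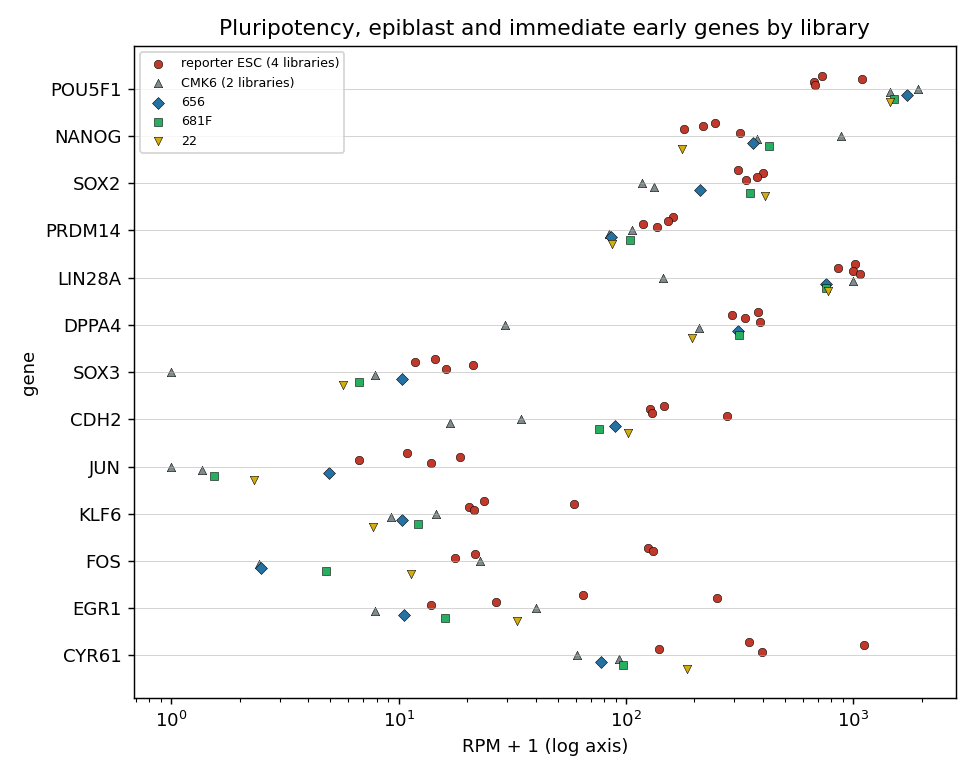
Levels of pluripotency, epiblast and immediate early genes in RPM + 1 (log axis) in each of the 9 libraries; red circles are the 4 reporter libraries and other symbols the transgene-free lines. POU5F1 lies lower (672 to 1091 against 1443 to 1927 RPM) and JUN and KLF6 higher in reporter libraries without overlap, while FOS and EGR1 spread widely within the reporter group.

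Across all genes, 19 of 9481 were called between reporter and transgene-free ESC, that is 0.200% of those tested. A call needs an adjusted p under 0.05 and a log2 difference of at least 1, and genes were tested with at least 10 RPM in at least 2 libraries. Of the 19 genes, 5 rose and 14 fell in reporter ESC, and the groups did not overlap for any of the 19. Among all genes tested, 2.80% were higher and 4.19% were lower in every reporter library than in every transgene-free library. The unadjusted p was under 0.05 for 1270 genes, where 474 would be expected by that threshold alone.

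Among the 19 called genes, the largest differences were those of genes whose transcripts were listed at 0, or at a single read, in the reporter libraries. ERP29, a folding helper of the endoplasmic reticulum, was listed at 0 in all 4 reporter libraries and at 67.4 and 81.9 RPM in CMK6, 43.8 in 656, 89 in 681F and 54 in 22. VAPB, an endoplasmic reticulum membrane protein at contact sites with other organelles, was at 0.15 RPM in reporter library 1, which is 1 read, and listed at 0 in the other 3. In transgene-free ESC it was at 97.4 and 44 RPM in CMK6 and at 44, 19.5 and 13.8 RPM in 656, 681F and 22. Both genes are broadly expressed in other tissues. SLC41A3, a magnesium transporter, was listed at 0 in all 4 reporter libraries and at 15.5, 10.5, 21.7, 20.6 and 28.0 RPM in CMK6 1 and 2, 656, 681F and 22. The adjusted p was 2.36e-06 for ERP29, 0.00186 for VAPB and 0.00207 for SLC41A3 (limma). An exact 0 can be a failed estimate of the quantification, so no fold is given for these genes.

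The insulin receptor gene INSR showed the same pattern at lower levels. It was listed at 0 in reporter libraries 1 to 3, at 0.54 RPM in library 4, which is 1 read, and at 20.0, 16.2, 8.36, 19.8 and 7.26 RPM in CMK6 1 and 2, 656, 681F and 22 (adjusted p = 0.0128). Without CMK6 it fell under the filter on low values and was not tested. The unnamed protein-coding entry LOC102140476 was listed at 0 in all 4 reporter libraries and at 7.63 RPM in 656, 18.2 and 18 in CMK6, 43.1 in 681F and 47.2 in 22 (adjusted p = 0.00424). In the 28 libraries of reporter lines after induction, ERP29 was listed at 0 in 25, VAPB in 27, SLC41A3 in 23, INSR in 26 and LOC102140476 in 28. The highest values there were 0.62, 1.17, 5.28 and 0.47 RPM for ERP29, VAPB, SLC41A3 and INSR. Low or absent levels of these transcripts were therefore also measured after induction of the reporter lines.

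Other genes fell in reporter ESC without reaching 0. MAL2, a membrane protein of apical transport, was at 1.91, 3.45, 3.52 and 2.15 RPM in reporter libraries, at 130 and 63.5 RPM in CMK6 and at 12.3, 33.6 and 25.9 RPM in 656, 681F and 22. CLDN6, a tight junction claudin of early embryonic cells, was at 59.3, 51.4, 43.1 and 78.1 RPM against 345, 206, 133, 148 and 191 RPM. ERBB3, a receptor of the epidermal growth factor family, was at 6.46 to 14.5 RPM against 28.1 to 89.2 RPM. In each of these genes CMK6 was highest and the reporter libraries were lowest. The log2 differences were -3.45 ± 0.55 for MAL2, -1.75 ± 0.30 for CLDN6 and -2.10 ± 0.38 (SE) for ERBB3, with adjusted p of 0.027, 0.0357 and 0.0489. SERPINB6, an intracellular serine protease inhibitor, had a mean of 36.4 ± 12.5 RPM (SD, n = 4) in reporter and 220 ± 108 RPM (SD, n = 5) in transgene-free ESC, a log2 difference of -2.47 ± 0.38 (adjusted p = 0.0225).

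The remaining decreases were single genes of different function. CBS, the first enzyme of transsulfuration from homocysteine to cysteine, was at 24.9, 21.6, 24.2 and 16.2 RPM in reporter libraries and at 87.4, 124, 58.6, 86.5 and 64.3 RPM in CMK6 1 and 2, 656, 681F and 22. ALDOA, the glycolytic aldolase, was at 58.7 to 72.8 RPM against 136 to 268 RPM. STIP1, a cochaperone that links HSP70 and HSP90, was at 21.5 to 39.7 RPM against 85.5 to 112 RPM, with an even transgene-free level (97 ± 10.5 RPM, SD, n = 5). The log2 differences were -1.88 ± 0.27 for CBS, -1.43 ± 0.24 for ALDOA and -1.53 ± 0.24 (SE) for STIP1, with adjusted p of 0.0128, 0.0357 and 0.0247. SLC7A3, a transporter of cationic amino acids, was at 44.3 to 86.2 RPM against 143 to 242 RPM (-1.59 ± 0.27, adjusted p = 0.0357). C10H20orf27, a gene of unknown role, was at 2.69 to 6.03 RPM against 14 to 30.3 RPM (-2.16 ± 0.37, adjusted p = 0.0357), and it was not called without CMK6 (adjusted p = 0.0579).

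The 5 genes that rose in reporter ESC did so from a level already measurable in the transgene-free lines. GJC1, which encodes the gap junction protein connexin 45, was at 49.1, 45.7, 41.8 and 76 RPM in reporter libraries and at 11.8, 10.5, 9.35, 12.5 and 10.6 RPM in CMK6 1 and 2, 656, 681F and 22. The transgene-free lines were nearly equal, at 11.0 ± 1.23 RPM (SD, n = 5), and reporter ESC had 53.1 ± 15.5 RPM (SD, n = 4), a log2 difference of 2.15 ± 0.26 (adjusted p = 0.00424). PHLDA1, a pleckstrin homology protein induced by growth factor signalling, was at 98.7, 151, 113 and 161 RPM against 41.9, 40.8, 42.1, 28.8 and 43.1 RPM (1.70 ± 0.24, adjusted p = 0.0128). The other increases were ALG11, PHLDB2 and the unnamed entry LOC107126573.

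ALG11, a mannosyltransferase that builds the precursor of N-glycans, was at 43.2 to 80.7 RPM in reporter and at 9.60 to 23.1 RPM in transgene-free libraries (1.80 ± 0.31, adjusted p = 0.0357). Its locus overlaps the gene UTP14C, so reads could be split between the 2 entries; UTP14C was at 29.8 to 51.0 RPM against 9.51 to 31.7 RPM and was not called. PHLDB2, a protein of the cell cortex at adhesions, was at 33.4 to 57.1 RPM against 13.0 to 17.9 RPM (1.55 ± 0.27, adjusted p = 0.0357). LOC107126573 was at 35.2 to 84.6 RPM against 3.97 to 12.6 RPM (2.73 ± 0.37, adjusted p = 0.0108). After induction the range over 28 libraries was 12.3 to 87.9 RPM for GJC1, 16.7 to 82.9 RPM for ALG11 and 44.7 to 871 RPM for LOC107126573. It was 4.98 to 265 RPM for PHLDA1 and 6.77 to 107 RPM for PHLDB2. The median after induction was 23.7 RPM for PHLDA1, below every transgene-free library. For PHLDB2 it was 17.7 RPM, inside the transgene-free range.

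**Figure D3:**
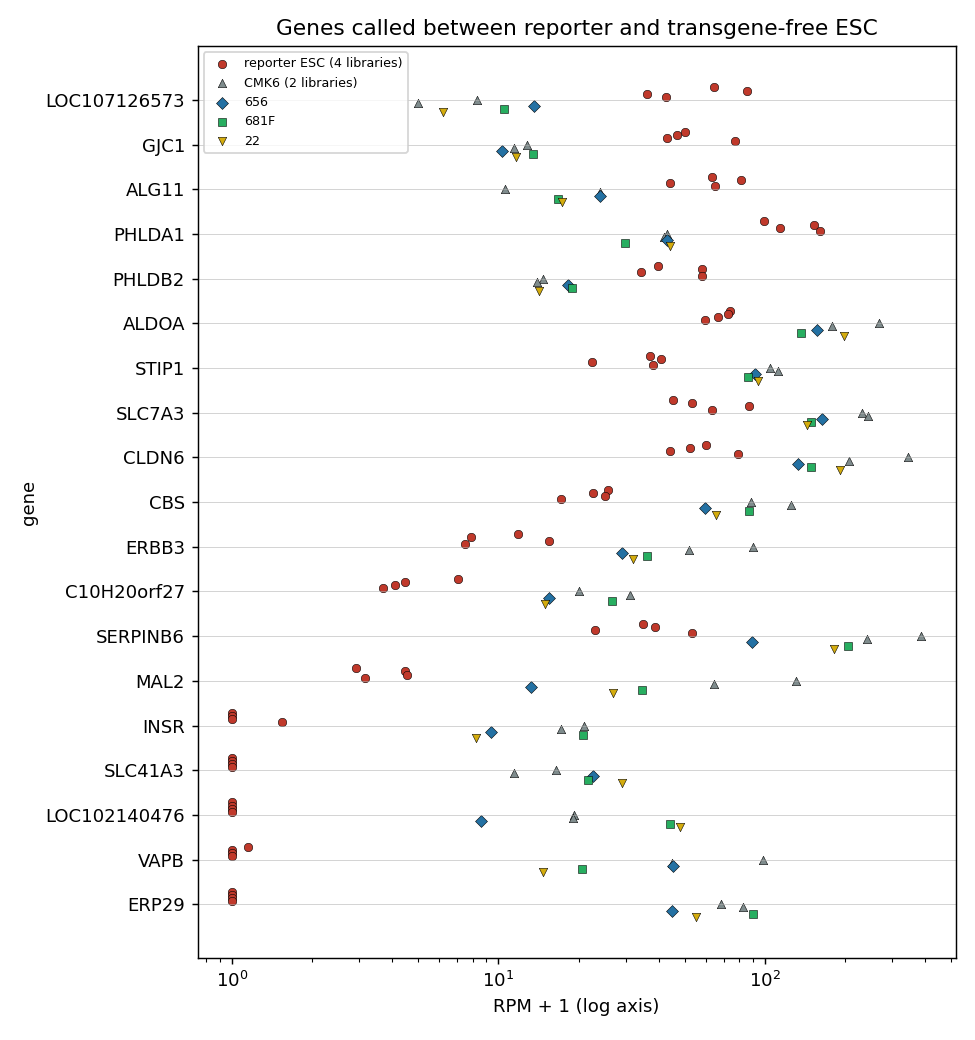
Levels of the 19 called genes in RPM + 1 (log axis), 1 symbol per library, ordered by log2 difference. The 4 reporter libraries (red circles) do not overlap with the 5 transgene-free libraries in any gene, and ERP29, SLC41A3 and LOC102140476 are listed at 0 in all 4.

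The number of calls depended on single libraries. Leaving out reporter library 1, 2, 3 or 4 left 6, 5, 12 and 7 genes called. Leaving out CMK6 library 1 or 2 left 25 and 13, and leaving out 656, 681F or 22 left 41, 6 and 9. Only ERP29, VAPB, SLC41A3, LOC102140476 and GJC1 were called in all 9 of these fits, and the other 14 lost the call in at least 1. With the mean per line as the unit, 2 reporter against 4 transgene-free lines, ERP29 and SLC41A3 were the 2 genes called.

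Without both CMK6 libraries, 46 of 9226 genes were called (0.499%), 13 higher and 33 lower in reporter ESC, and 17 of these were among the 19. The 29 further genes include HES1, a Notch target, at 82.1, 48.3, 25.9 and 21.6 RPM in reporter libraries against 6.15, 1.36 and 4.15 RPM in 656, 681F and 22. HMGA2, a chromatin protein of embryonic cells, was at 284 to 593 RPM against 133 to 180 RPM. Both were still higher than in CMK6, where HES1 was at 0.91 and 10.8 RPM and HMGA2 at 42.8 and 42.9 RPM. Among decreases, MFGE8, a secreted glycoprotein, was at 11.3 to 23.7 RPM against 54.6, 140 and 109 RPM, but CMK6, at 34.6 and 8.66 RPM, overlapped the reporter range. IGFBP2, an insulin-like growth factor binding protein, was at 16.4 to 41.5 RPM against 72.8, 86.3 and 94.4 RPM. PYCR1, an enzyme of proline synthesis, was at 29.1 to 62.0 RPM against 113 to 123 RPM, with CMK6 at 36.4 and 102.1 RPM. These 5 genes were chosen after their values were seen, and the adjusted p in this fit was 0.0185 for HES1, 0.0198 for HMGA2, 0.0131 for MFGE8, 0.0491 for IGFBP2 and 0.0284 for PYCR1.

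The gene lists were searched for called members. The 30 lists hold 431 different genes, of which 38 have no entry and 248 were tested; members under the filter were at low levels in nearly all libraries and say nothing of a change. Called members were ALDOA, of 15 tested in the glycolysis and hypoxia list, and CLDN6, of 14 tested in the cell adhesion list. Over all tested genes, 0.200% were called. The glycolysis list had a median log2 difference of -0.47, beside 0.04 over all tested genes. Without CMK6 its median was -0.22. Of its 15 genes, 3 (ALDOA, ALDOC and ENO1) lay lower in all reporter libraries, beside 4.19% of all tested genes. The 14 primed epiblast and neural genes had a median of 0.85, and of 0.26 without CMK6. Among them 3 lay higher in reporter ESC without overlap, beside 2.80% of all tested genes. These were the surface protein THY1, the transcription factor SOX3 and N-cadherin (CDH2). In CMK6 ZIC2 was at 86.5 and 65.3 RPM beside 291 to 474 RPM in the 7 other libraries.

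Immediate early genes, which respond within minutes to serum, growth factors or handling, lay higher in reporter ESC but unevenly. Of 15 tested members none was called, beside 0.200% of all tested genes. The median log2 difference was 1.41, and 1.33 without CMK6, beside 0.04 and -0.04 over all tested genes. Of the 15, 2 (JUN and KLF6) lay higher in every reporter library, beside 2.80% of all tested genes. JUN passed the filter on low values only through reporter libraries 2 and 4. JUN was at 9.85, 17.7, 5.71 and 12.9 RPM in reporter libraries against 0 to 3.94 RPM in the others (adjusted p = 0.122), and KLF6 at 19.3 to 58.3 against 6.75 to 13.7 RPM (adjusted p = 0.152). FOS separated the title codes within the reporter group: it was at 124 and 130 RPM in libraries 1 and 2 (MS134) and at 20.7 and 16.7 RPM in libraries 3 and 4 (MS162), beside 1.44 to 21.8 RPM in transgene-free ESC. EGR3 was at 155 RPM in reporter library 2, labelled 656BTAG63, and at 10.0 RPM or less in the 8 others. CYR61, a matrix-associated target of YAP and serum signals, was at 346, 1111, 138 and 394 RPM against 60.1 to 184 RPM (adjusted p = 0.141). Whether the title code or the handling it may stand for plays a part was not tested.

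Other lists gave few genes without overlap and no call. Over all tested genes, 2.80% were higher and 4.19% lower without overlap, and 0.200% were called. At such shares, a short list without these genes says nothing of its pathway. Of 8 tested NODAL and TGF-beta genes, whose median was 0.92 beside 0.04 over all tested genes, all overlapped between the groups. DUSP5, an ERK phosphatase, was at 7.47 to 34.5 RPM in reporter and 0 to 6.50 RPM in transgene-free libraries (adjusted p = 0.141). DNMT3B, the de novo DNA methyltransferase of primed cells, was at 1046, 1106, 1090 and 644 RPM against 1444 to 3367 RPM (log2 difference -0.99, adjusted p = 0.211). EHMT2, an H3K9 methyltransferase, was at 52.3 to 89.7 RPM against 105 to 141 RPM (adjusted p = 0.161). In the DNA and histone methylation list, 2 of 15 tested genes were lower without overlap. B2M (beta-2 microglobulin), a subunit of MHC class I molecules, was at 1237 to 1630 RPM against 565 to 1097 RPM (adjusted p = 0.26). The 16 proliferation genes all overlapped, with a median of -0.21, and the 14 HOX genes were under 10 RPM in all libraries.

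Line 656 shares its name with the reporter lines and its title code with 681F and 22, so its level was compared with both sides after a fit that left it out. That fit called 41 of 9416 genes (0.435%), 13 higher and 28 lower in reporter ESC. In the held-out library, 21 of the 41 lay nearer to the reporter mean and 20 nearer to the mean of CMK6, 681F and 22 on the log2 scale. With 0% set at the mean of the other transgene-free lines and 100% at the reporter mean, 656 was at 75% or more in 11 genes, at 25% or less in 12 and between in 18. The same was then done for each other line, a step chosen after the data were seen. When 681F or 22 was held out, 0 of 6 and 0 of 9 called genes lay nearer to the reporter mean. When both CMK6 libraries were held out, it was 7 of 46 (15.2%). In these fits 656 stayed in the transgene-free group, which hinders the call of genes where 656 lies with reporter ESC. The 6 and 9 genes were also all among the 19 called above, whose groups do not overlap. Their shares were thus largely set in advance and cannot be compared with the 51.2% for 656. The number of genes differs between these fits, and the difference between lines was not tested.

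The genes that 656 shared with reporter ESC include an imprinted gene cluster. SNRPN, an imprinted splicing factor gene, was at 0.44, 1.29, 2.2 and 0.54 RPM in reporter libraries and at 0.25 RPM in 656, but at 1607 and 694 RPM in CMK6, 757 in 681F and 852 in 22. NDN, which encodes the growth suppressor necdin, was listed at 0 in the 4 reporter libraries and in 656, and at 42.8, 23.8, 36.4 and 28.5 RPM in CMK6 1 and 2, 681F and 22. In human these genes lie in the Prader-Willi region, where the paternal copies are the active ones. In the RefSeq annotation of the assembly T2T-MFA8v1.1, the entries MAGEL2, NDN, SNRPN, LOC101865285 (a long noncoding RNA) and LOC102137007 (a small nucleolar RNA) lie on the same chromosome, and they follow each other closely in the deposited table.

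Of the neighbours, LOC102137007 and LOC101865285 were high in the same 4 libraries as SNRPN. LOC102137007 was listed at 0 in reporter ESC and 656 and at 479, 162, 460 and 391 RPM in CMK6 1 and 2, 681F and 22. LOC101865285 was at 0.15 RPM, 1 read, in reporter library 1, listed at 0 in the other 3 and in 656, and at 266, 29.95, 59.96 and 55.5 RPM in the same 4 libraries. MAGEL2, a ubiquitin ligase adaptor, was listed at 0 in reporter ESC, 656 and CMK6 2 and at 1.82, 11.1 and 5.19 RPM in CMK6 1, 681F and 22, too low to test. MKRN3, the entry beside it, was at 0 to 0.44 RPM in all 9 libraries. Reads of overlapping transcripts in this cluster cannot be assigned to a single entry with certainty. In the fit without 656 the adjusted p was 1.37e-07 for SNRPN, 2.24e-07 for LOC102137007, 0.000344 for NDN and 0.000462 for LOC101865285. With 656 counted among the transgene-free lines, none of them was called (adjusted p of 0.123 for SNRPN and 0.13 for NDN). After induction, SNRPN stayed at 0 to 2.77 RPM and NDN at 0 to 0.62 RPM in the 28 libraries of reporter lines.

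**Figure D4:**
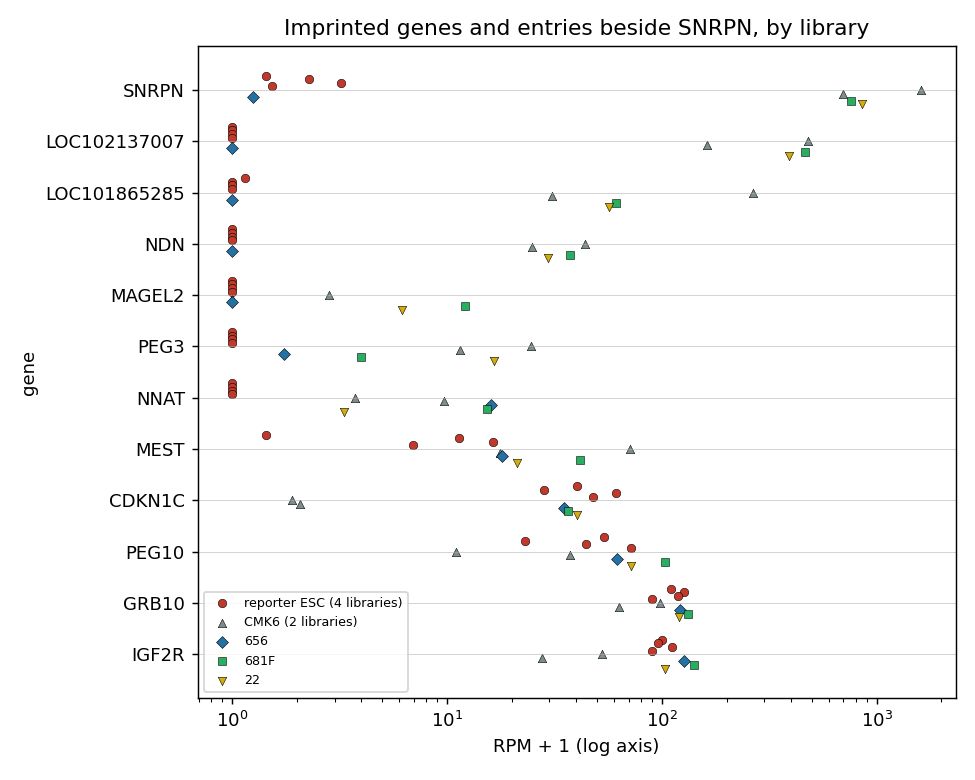
Levels of imprinted genes and of entries beside SNRPN in RPM + 1 (log axis), 1 symbol per library. For SNRPN, LOC102137007, LOC101865285 and NDN, 656 (blue diamond) lies with the 4 reporter libraries near 0, while CMK6, 681F and 22 lie between 23.8 and 1607 RPM.

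Of 22 imprinted genes listed, SNRPN, NDN and MAGEL2 included, 17 have an entry and 13 were tested. None was called, and the median log2 difference was -0.02, and -0.77 without CMK6, beside 0.04 and -0.04 over all tested genes. Outside the SNRPN cluster, 3 of the 13 (PEG3, NNAT and MEST) lay lower in every reporter library than in every transgene-free library. Over all tested genes this share was 4.19%. PEG3, a paternally expressed zinc finger gene, was listed at 0 in all reporter libraries, at 0.74 RPM in 656, and at 23.7, 10.5, 2.98 and 15.6 RPM in CMK6 1 and 2, 681F and 22 (adjusted p = 0.161). NNAT, a paternally expressed proteolipid gene, was also listed at 0 in the 4 reporter libraries, but at 15.0 RPM in 656 and at 2.33 to 14.4 RPM elsewhere (adjusted p = 0.126). So for NNAT 656 sided with the other transgene-free lines and for SNRPN with reporter ESC. MEST, another paternally expressed gene, was at 0.44, 10.4, 15.4 and 5.93 RPM in reporter libraries and at 16.6 to 70.1 RPM in the others (adjusted p = 0.216). CDKN1C, a maternally expressed inhibitor of the cell cycle, was at 0.91 and 1.08 RPM in CMK6 and at 27.2 to 60.2 RPM in the 7 other libraries. GRB10, IGF2R and PEG10 were measurable in all 9 libraries and overlapped between the groups.

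Further genes set reporter ESC and 656 apart from the other lines. ERV3-1, an endogenous retroviral gene of the host genome, was listed at 0 in the 4 reporter libraries and 656 and was at 15.5, 20.2, 40.2 and 42.6 RPM in CMK6 1 and 2, 681F and 22. In the other direction, the pseudogene entry LOC102130365 was at 431, 351, 300 and 323 RPM in reporter libraries and 393 RPM in 656, but at 3.64, 8.66, 2.44 and 5.19 RPM in the same lines. SULT1E1, an estrogen sulfotransferase, was at 14.6, 14.2, 18 and 22.6 RPM in reporter libraries, 60.5 RPM in 656 and 0 to 0.72 RPM in the others. LOC102131764, named H1-10 (a linker histone) in RefSeq, was at 33.9 to 101.2 RPM in reporter libraries, 93.7 RPM in 656 and 1.44 to 14 RPM elsewhere, and near-identical copies of a histone gene could share its reads. RPL26L1, a ribosomal protein paralog, was at 1.08 to 3.82 RPM in reporter libraries, 1.97 RPM in 656 and 19.1 to 106 RPM in CMK6, 681F and 22. LOC102129052 was at 36.7 to 52.8 RPM in reporter libraries, 47.7 RPM in 656 and 0 to 3.97 RPM in the others.

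For most of the genes listed at 0 or at a single read in reporter ESC alone, 656 lay near the other transgene-free lines. Its position was 11.3% for ERP29, -8.02% for VAPB, -6.84% for SLC41A3 and 19.7% for INSR, but 36.4% for LOC102140476, where 656 was the lowest of the transgene-free libraries. It was also on that side for GJC1 (-12.0%), PHLDA1 (7.98%), STIP1 (6.83%) and SLC7A3 (11.7%). MAL2 (51.9%) and SERPINB6 (52.3%) lay midway, with 656 the lowest of the transgene-free libraries for both.

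**Figure D5:**
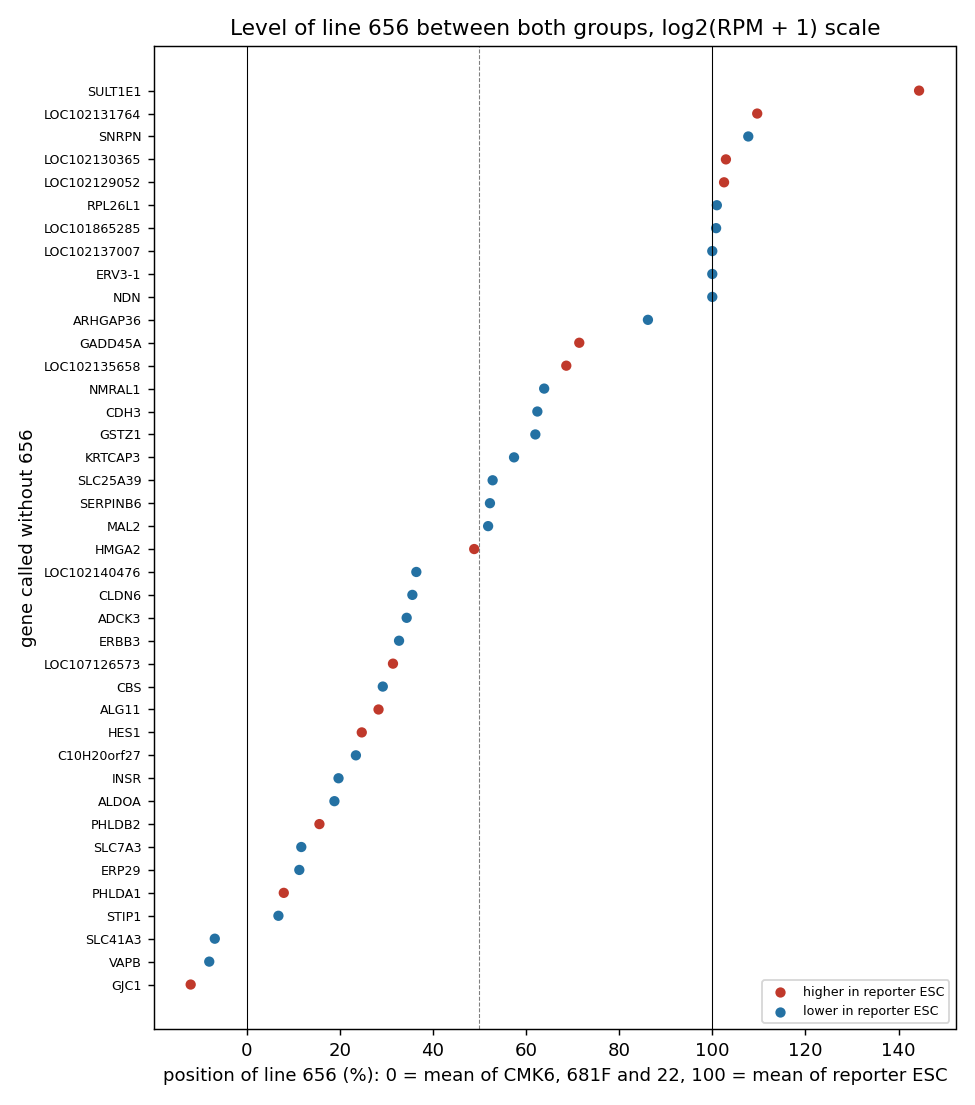
Position of the held-out library of line 656 for the genes called without it, 1 of the 41 not shown (x axis in percent on the log2(RPM + 1) scale, 0 at the mean of CMK6, 681F and 22 and 100 at the reporter mean). In 11 genes, among them SNRPN, NDN and ERV3-1, it lies at 75 or more, and in 12, among them ERP29, VAPB, SLC41A3 and GJC1, at 25 or less.

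A direct test of the reporter lines against 656, which has 1 library, called 0 of 9481 genes (0%). It takes its spread mainly from the repeats of 656BTAG42 and CMK6 and assumes that 656 varies like these. The smallest adjusted p was 0.146, for ERP29 (limma), and 134 genes had an unadjusted p under 0.05, where 474 would be expected by that threshold alone. Without CMK6 library 1 or 2 that number was 585 and 570, and still 0 genes were called. On the recovered reads, edgeR called 1 gene, VAPB (adjusted p = 0.0483). DESeq2 called 11 genes: ERP29, VAPB, SLC41A3, LOC102140476, INSR and NNAT were lower in the reporter lines, and AMOTL2, MMP1, FOS, CYR61 and EGR3 were higher. With the reporter libraries taken as 1 group, limma called ERP29 (adjusted p = 0.0224).

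The transgene-free lines also differed among themselves, and CMK6 most. CMK6 has the code MS116 and 656, 681F and 22 have MS173, so line and code cannot be told apart here. Against 656, 681F and 22, CMK6 was higher in 60 genes (0.633% of 9481) and lower in 369 (3.89%), and the median over all genes was -0.21. The split depends on scaling: median-of-ratios scaling gave 103 higher and 183 lower, and edgeR 95 and 134. The count also rests on single libraries, being 85, 79 and 89 without 656, 681F or 22, and 132 and 219 without reporter library 1 or 3. Without CMK6 library 1 or 2 the fit has no spread within CMK6, so its count is not relied on. Among named genes the largest decrease was that of GADD45G, a stress-response gene, at 1.82 and 0.36 RPM in CMK6 and 55.4 ± 18.4 RPM (SD, n = 3) in the 3 other lines (-4.79 ± 0.58, adjusted p = 0.00214).

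The other named decreases in CMK6 were of mixed function. PFN1, the actin-binding profilin, was at 11.8 and 67.1 RPM in CMK6 and at 883, 655 and 310 RPM in 656, 681F and 22 (adjusted p = 0.0107, but 0.052 with edgeR, 0.0551 without 656 and 0.0533 without 681F). CDKN1C (above), MYADM, a membrane protein, ZIC5, a neural transcription factor, and NPTN, an adhesion protein, differed by -4.22, -4.13, -4.06 and -3.71 on the log2 scale, with adjusted p of 0.000579, 0.00203, 0.00806 and 0.0012. Among the named increases, GRHL2, an epithelial transcription factor, was at 27.3 and 20.2 RPM in CMK6 and at 0.98, 3.80 and 0 RPM in the 3 lines, and RAB25, an epithelial trafficking GTPase, at 23.7 and 44 against 0.98, 5.70 and 1.56 RPM. FAIM, an apoptosis inhibitor, was at 31.9 and 27.1 RPM against 0.98, 0.27 and 0 RPM. TMEM63A, an ion channel, PLPP2, a lipid phosphatase, and SYK, a tyrosine kinase, were at 24.6 and 27.4, 28.2 and 16.2, and 15.5 and 11.9 RPM in CMK6 and did not exceed 2.44 RPM in the 3 lines. All 6 increases passed, with adjusted p of 0.0123 to 0.0394, but none passed with a pseudocount of 0.1 (0.124 to 0.275). With edgeR and DESeq2 the adjusted p was 0.0744 and 0.25 for GRHL2 and 0.058 and 0.476 for TMEM63A, and the call of GRHL2 was lost without any 1 of the 7 libraries outside CMK6 (0.0502 to 0.119). PLPP2, SYK and RAB25 lost the call without 656 (0.093, 0.0771 and 0.101), 681F (0.105, 0.105 and 0.0544), 22 (0.0621, 0.102 and 0.105) or reporter library 1 (0.0578, 0.0673 and 0.0578), and SYK without reporter library 3 (0.0511). TMEM63A lost it without 656 or 22 (0.071 and 0.0843). Reporter ESC were at 0 to 2.59 RPM for these 6 genes, like 656, 681F and 22.

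Genes of a chromosome did not all lie alike in CMK6. The 176 tested genes that RefSeq (T2T-MFA8v1.1) places on the chromosome of RB1 and KLF5 had a median log2 deviation from the mean of the other lines, with each library centred on its own median, of -0.26 and -0.64 in CMK6 library 1 and 2, and of -0.06 to 0.23 in the 7 other libraries. CMK6 was called lower in 23 of them (13.1%), beside 3.89% of all tested genes, and higher in 0.

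Differences of at least 10-fold that split the lines cleanly were few. With every library of one side at 10 RPM or more and at least 10 times every library of the other side, 3 genes (ERP29, VAPB and SLC41A3) set reporter ESC apart from all transgene-free lines, and 7 set reporter ESC and 656 apart from the rest. CMK6 was apart from all others in 9 genes. 681F and 22 were apart together in 3 unnamed entries, of which LOC102139757, listed next to TSIX in the table, was at 409 and 492 RPM in these lines and at 0 to 3.61 RPM in the 7 other libraries. XIST, whose RNA coats an inactive X chromosome, and the Y-linked genes looked for have no entry of their symbol in the table, so the sex of the lines was not checked. RPAP1, an RNA polymerase II-associated protein, was at 1.09 RPM in 681F and at 40.2 to 103 RPM in the 8 other libraries. No gene placed reporter ESC with 681F alone, with 22 alone or with CMK6 alone.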

How the data were processed

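The authors deposited RPM values per gene, reads of a gene scaled to the library total, and per the submitters' processing notes cutadapt 1.3, TopHat 1.4.1 and Cufflinks 2.2.0 were among the tools, with no role stated. No source used here names the build behind the monkey values, and coordinates are therefore omitted. Of 26018 entries, 77.9% matched RefSeq (T2T-MFA8v1.1) by gene ID, used for names, types and shared chromosomes. Reads recovered from the RPM step were whole for 99.4% to 99.7% of low values (tolerance 0.1 steps).

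Differences were tested with limma 3.58.1 (R 4.3.3, intensity trend) on log2(RPM + 1) for genes that reached 10 RPM in 2 or more libraries, and called at a Benjamini-Hochberg adjusted p under 0.05 and a log2 difference of at least 1. The fits were reporter against transgene-free ESC, 1 coefficient per line for 656, and 3 groups for CMK6. A fold on this scale understates low genes. The alternatives were pseudocounts 0.1 and 10, no filter, a mean of 20 RPM, median-of-ratios, quantile normalization, a robust prior, no size threshold, edgeR 4.0.16, DESeq2 1.42.0, line means, line as block, reporter library 5 added, and each library left out. Fits without CMK6, and reporter libraries as 1 group against 656, were added after seeing the data. On data simulated for the first comparison limma recovered 53.7%, 95.5% and 100% of genes changed by 1.5, 2.5 and 4 on the log2 scale. It also called 10 genes that had not been changed. The simulated libraries were drawn independently, without differences between lines, unlike the real data.

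Libraries, lists and tests were chosen with earlier results of these data known. Named genes are germ cell and pluripotency factors, the 10 largest increases and 10 largest decreases (6 for CMK6) past the threshold without unnamed entries, up to 4 called members per list, and genes 10-fold apart in 1 line; others were chosen after their values were seen. The sources used here do not say whether reads were counted by strand. Some genes are not reported here.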

Additional observations from a re-analysis of the deposited data

Results flagged for a closer look

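Among 48 genes, the groups of reporter and transgene-free libraries were searched for a library far from the others of its group on the log2 scale. This was found in 16 of 88 groups (18.2%). Chance flags about 1 in 20, but many of the genes were included because they were called with 656 left out, so the 2 shares cannot be compared. In 7 of the 8 transgene-free cases the library was 656: SULT1E1 at 60.5 RPM (the others 0 to 0.72), SNRPN at 0.25 (694 to 1607), LOC102130365 at 393 (2.44 to 8.66), ERV3-1 at 0 (15.5 to 42.6), NDN at 0 (23.8 to 42.8), LOC102137007 at 0 (162 to 479) and NMRAL1 at 4.43 RPM (12.5 to 16.6). The 8th was PHLDA1 in 681F at 28.8 RPM, with the others at 40.8 to 43.1.

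Within the reporter group, POU5F1 stood at 1091 RPM in library 2 (the others 672 to 725), STIP1 at 21.5 RPM in library 3 (36.2 to 39.7) and ADCK3 at 2.64 RPM in library 3 (0 to 0.15). Others rest on 1 or 2 reads where the rest of the group is at 0, among them VAPB at 0.15, LOC101865285 at 0.15 and KRTCAP3 at 0.29 RPM in library 1, and INSR at 0.54 RPM in library 4.

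The library labelled reporter ESC that was left out of the comparisons had PRDM1 at 253 RPM and SOX17 at 1211 RPM, far above the 9 libraries compared.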

How the results depend on the processing

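Of the 19 genes called between reporter and transgene-free ESC, none changed direction under any alternative run, and 5 were called with each library left out. The count was 12 with a mean of at least 20 RPM, 316 with DESeq2 (113 higher, 203 lower), 46 without both CMK6 libraries, 2 with line means, and 5 to 41 with 1 library left out. It stayed within 1.5 times of 19 under the other alternatives, for example 24 with edgeR, 14 with no filter on low values and 20 with the line as a random block. Against 656 alone, 0 genes became 53 with no filter, 1 with edgeR, 11 with DESeq2 and 1 with the reporter libraries as 1 group; it was 0 with each library left out that allowed a fit, and no fit is possible without 656. For line 656, 46.2% to 61.2% of the called genes lay nearer to the reporter mean. The 429 genes of CMK6 against 656, 681F and 22 became 223 with a mean of at least 20 RPM, 166 with quantile normalization, 229 with edgeR, 731 with DESeq2, 275 with reporter library 5 added, and 79 to 2266 with 1 library left out. The upper end of that range is from the fit without CMK6 library 2, which has no spread within CMK6, so it is not a usable count. Leaving out 1 library outside CMK6 gave 79 to 315 genes. With reporter library 5 added, the log2 difference turned to 0.63 for TFAP2C (adjusted p = 0.81) and to -0.15 for SOX2 (adjusted p = 0.946), neither called in any fit of reporter against transgene-free ESC. The cause of these changes was not tested. No paired analysis was possible because the labels give the libraries no replicate numbers shared between the groups. Depth limits genes near a single read, up to 0.91 RPM in CMK6 library 1, the shallowest.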
